A study of Mus musculus with 5 samples.

Results

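The cells described here are the tumor cells that the deposited tumor table places in clusters 1 and 3 of its graph-based clustering. They number 1370 of the 2467 tumor cells and of the 6645 cells of the series. The study profiled single cells of pancreatic tumors from mice with a homozygous knockout of Gcgr, the gene of the glucagon receptor, in 3 libraries listed as replicates. It also profiled islets of 1 homozygous knockout library and 1 heterozygous library, both outside the tumor table. No treatment was given to any group, and all animals were kept on standard chow. Cells of all 5 libraries were dissociated and captured with droplet 3' chemistry, so each value counts unique molecular identifiers (UMIs), 1 for each captured transcript. The labels give neither age nor strain, and do not describe the knockout allele. The tumor libraries are called A, B and C here, in the order of their names in the table.

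Glucagon is made by the alpha cells of the islet and acts on the liver, where its receptor drives glucose output and the breakdown of amino acids. When the receptor is lost, amino acids build up in the blood and alpha cells multiply, and in older animals neuroendocrine tumors can form from them. Alpha cells are known by glucagon itself (Gcg), by transcription factors such as Irx1 and Irx2, and by the carrier protein transthyretin (Ttr). Amino acid excess in such animals is known to induce the glutamine transporter Slc38a5 in a subset of alpha cells. Slc38a5 lies on the X chromosome, whose genes were left out here together with those of the Y.

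The clusters followed the libraries. Cluster 1 held 853 cells of library B and 2 of library A. Cluster 3 held 511 cells of library A, 2 of library B and 2 of library C. Clusters 2 (708 cells) and 4 (389 cells) were made of library C alone. After removal of 27 called doublets among the cells of clusters 1 and 3, these clusters held 495 of 495 cells of library A (100%, exact 95% interval 99.3 to 100), 846 of 846 of library B (100%, 99.6 to 100) and 2 of 1084 of library C (0.185%, 0.0224 to 0.665). Every comparison of clusters 1 and 3 with clusters 2 and 4 therefore sets libraries A and B against library C. Cluster, library and tumor cannot be told apart in it, and no library had 20 or more cells on both sides, so no ratio within a library could be given. The names of libraries A and B share a number of unstated meaning. Because the clusters were made from the expression of these same cells, the values below are descriptions with counting intervals, and no test was made.

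The level of a gene is its summed UMIs in the cells of a cluster's main library, divided by all their UMIs and scaled to a total of 1000000 (CPM). The cells behind it were 844 cells of library B for cluster 1 (22581938 UMIs), 493 of library A for cluster 3 (10036863), and 697 and 385 of library C for clusters 2 and 4. The median cell held 26120 UMIs in cluster 1 and 19771 in cluster 3, against 18851 in cluster 2 and 21029 in cluster 4. Mitochondrial UMIs made up 1.18% of the median cell in cluster 1 and 1.25% in cluster 3, against 2.19% and 1.73% in clusters 2 and 4. After thinning to 5000 UMIs per cell, 46 of 841 cells of cluster 1 (5.47%, exact 95% interval 4.03 to 7.23) and 30 of 477 of cluster 3 (6.29%, 4.28 to 8.86) were scored as cycling, by UMIs of 2 or more of 11 cell cycle genes. Clusters 2 and 4 had 8.44% (6.47 to 10.8) and 2.62% (1.27 to 4.77). Without thinning the shares were 10.4%, 12.2%, 17.2% and 14.0% for clusters 1, 3, 2 and 4. No cell name was shared between libraries.

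Both clusters carried the alpha cell program. Gcg stood at 284110 CPM in cluster 1 and 364460 CPM in cluster 3, below and above the levels of clusters 2 (306100) and 4 (322920). It was at 350580 CPM in the largest alpha cell cluster of the homozygous islets, called 2.1 in the deposited table (947 cells). Of the 8 autosomal alpha cell markers, 0 were without UMIs in either cluster. Ttr was at 116290 CPM in cluster 1 and 54872 CPM in cluster 3, with 74720 and 121640 CPM in clusters 2 and 4.

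The markers given for clusters 1 and 3 did not set them apart together. Vgf, a secreted neuropeptide precursor of the granin family, came closest, at 457 CPM in cluster 1 and 334 CPM in cluster 3 against 178 in cluster 2 and 241 in cluster 4. It was higher in clusters 1 and 3 in all 4 pairs, but the ratio of cluster 3 to cluster 4 was 1.39 (exact 95% counting interval 1.31 to 1.47). Cd2, an adhesion molecule best known from T cells, was at 71.3 and 65.2 CPM in clusters 1 and 3, between cluster 2 (51.4) and cluster 4 (181). Irx1 was high in cluster 1 (220 CPM), while cluster 3 (123 CPM) lay between cluster 4 (87.8) and cluster 2 (138). Gfra3, a co-receptor for ligands of the GDNF family, showed the same split, with 119 CPM in cluster 1 and 77.1 in cluster 3 against 80.9 and 72.5. In islet cluster 2.1 these 4 genes stood at 175, 35.3, 152 and 72.5 CPM. The data thus go against a shared high level of the given markers, and the cells are called by their cluster numbers. None of the 15 T cell genes listed beside Cd2 passed the expression filter described next, and the T cell markers summed to 4.83 and 14.8 CPM in clusters 1 and 3 against 21.1 and 34.9 CPM.

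**Figure D1:**
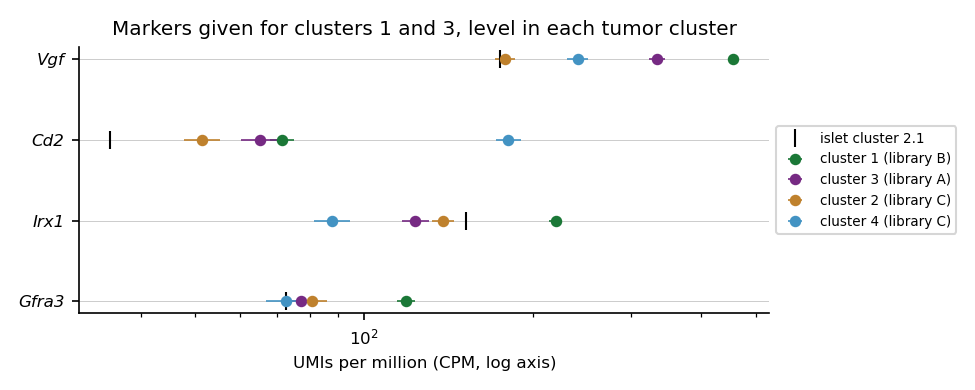
Levels of the 4 autosomal marker genes given for clusters 1 and 3, in CPM on a log axis, 1 point per tumor cluster with exact 95% counting intervals and a black tick for islet alpha cluster 2.1. Only for Vgf do the points of clusters 1 (457) and 3 (334) both lie to the right of those of clusters 2 (178) and 4 (241).

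A small set of genes was high in both clusters. Of 7193 autosomal or mitochondrial genes with a mean of at least 10 CPM over the 4 clusters, 20 (0.278%) were 2-fold or more higher in clusters 1 and 3 each than in clusters 2 and 4 each. Between clusters 1 and 3 themselves 467 genes (6.49%) differed 2-fold or more, and between clusters 2 and 4 of the single library C 401 genes (5.57%) did so. The shared high genes included an endoplasmic reticulum chaperone, a transcriptional corepressor, a synaptic membrane protein, a ubiquitin ligase and a potassium channel. Syndig1l (chr12:84677277-84698947), a membrane protein related to a factor of synapse development, was at 110 CPM in cluster 1 and 163 CPM in cluster 3 against 14.8 and 20.05 CPM in clusters 2 and 4. Its level in cluster 1 was 7.41 times that in cluster 2 (6.42 to 8.61), and its level in cluster 3 was 8.12 times that in cluster 4 (6.91 to 9.58). Runx1t1 (chr4:13742628-13895056), a corepressor that binds other transcription factors, was at 75.6 and 60.2 CPM against 9.61 and 13.2 CPM, a ratio of 7.87 (6.58 to 9.48) for cluster 1 over 2 and of 4.54 (3.70 to 5.62) for cluster 3 over 4.

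Hyou1 (chr9:44379490-44392369), a large chaperone of the endoplasmic reticulum that is induced with the unfolded protein response, was at 111 CPM in cluster 1 and 97.8 CPM in cluster 3. It was at 24.8 and 29.9 CPM in clusters 2 and 4 and at 14.0 CPM in islet cluster 2.1, so that both clusters lay above the tumor and islet clusters compared. The list it belongs to did not stand high as a whole. Of 25 chaperone and unfolded protein response genes past the filter, Hyou1 was the 1 shared high gene, and the median log2 ratio of cluster 1 over 2 was 0.21 and of cluster 3 over 4 was -0.06, against -0.11 and 0.02 over all genes. Hspa5, the central chaperone of that response, was at 634 and 516 CPM against 599 and 583 CPM.

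Ubr4 (chr4:139380659-139489533), a ubiquitin ligase that recognises destabilising protein ends, was at 309 and 582 CPM against 123 and 113 CPM. Ang (chr14:51091077-51102009), a secreted ribonuclease known for blood vessel growth, was at 390 and 430 CPM against 172 and 192 CPM. Its lowest ratio was 2.03 (1.93 to 2.15), just inside the threshold, and with totals taken without the hormone genes its smallest log2 ratio was 0.91, below it. The remaining shared high genes were lower in level and are named here after their values were seen. They comprised the tetraspanin Tspan8 (24.6 and 48.4 CPM against 3.77 and 4.25), the synaptotagmin family member Syt16 (20.7 and 20.4 against 3.18 and 3.64) and protein kinase C beta, Prkcb (19.7 and 33.1 against 4.06 and 4.37). The voltage-gated potassium channel Kcnc4 (17.8 and 25.7 against 3.03 and 5.35) and the channel-interacting calcium sensor Kcnip3 (48.0 and 49.7 against 20.2 and 17.1) were among them. Of the 19 listed ion channel genes past the filter, 0 were shared high and 1, the potassium channel Kcnc2, was shared low; Kcnc4 is not on that list. Sap30l, Arl4d, Trp53i11 and Fam20a were at 15.01 to 50.6 CPM in clusters 1 and 3. Also in the set were the predicted or unnamed genes 4732419C18Rik, 3930402G23Rik and LOC102638261, the microRNA gene row Mir6236 and the mitochondrial tRNA gene TrnM.

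A larger set was low in both clusters: 48 of the 7193 genes (0.667%) were 2-fold or more lower in clusters 1 and 3 each than in clusters 2 and 4 each. Its most extreme members were islet hormones of other cell types. Ins2, the main insulin gene of the mouse, had 46 UMIs in cluster 1 (2.04 CPM) and 2 UMIs in cluster 3 (0.199 CPM), against 750 CPM in cluster 2 and 5654 CPM in cluster 4. The ratio of cluster 2 over cluster 1 was 368 (276 to 503). In cluster 1, 816 of 844 cells (96.7%) held no Ins2 UMI and in cluster 3 491 of 493 (99.6%), whereas in cluster 2 only 2 of 697 cells (0.287%) and in cluster 4 0 of 385 cells were without one. Whether the cells that held Ins2 UMIs made the transcript themselves was not tested. Sst, the somatostatin of delta cells, was at 0.487 and 7.57 CPM against 438 and 970 CPM. Ins1 was at 20.7 and 0.697 CPM against 230 and 710 CPM. Iapp, the amyloid peptide released with insulin, was at 60.3 and 2.69 CPM against 191 and 472 CPM. Pcsk1, the convertase that cuts proinsulin and, in gut cells, proglucagon to GLP-1, was at 0.487 CPM in cluster 1 and 0.498 CPM in cluster 3 against 14.1 and 68.8 CPM. In islet cluster 2.1 Ins2, Sst, Ins1 and Iapp were at 6732, 3188, 2484 and 2974 CPM and Pcsk1 at 3.45 CPM.

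The shared low set also held genes of exocrine, blood and immune cells. The digestive protease gene Ctrb1 was at 0.443 and 6.48 CPM against 71.2 and 104 CPM, and the hemoglobin gene Hbb-bs, whose values are identical to those of the row Hbb-b1, was at 2.88 and 21.5 CPM against 231 and 219 CPM. The chemokine Ccl5 was at 5.27 and 9.37 CPM against 105 and 169 CPM. Summed over the marker lists, beta cell genes reached 138 and 7.27 CPM in clusters 1 and 3 against 1199 and 6847 CPM in clusters 2 and 4. Acinar genes summed to 2.88 and 12.5 against 122 and 168 CPM, and erythroid genes to 3.10 and 22.7 against 252 and 244 CPM. Macrophage genes summed to 46.2 and 180 against 186 and 411 CPM, endothelial genes to 4.96 and 32.0 against 49.4 and 36.8 CPM, and stellate cell genes to 2.13 and 12.2 against 34.7 and 27.7 CPM. Mafa was without UMIs in all 4 clusters, Pdx1 in clusters 2 and 3, and Nkx6-1 and Ucn3 in cluster 3. The sums of these 6 lists, and those of T and B cells, were lower in clusters 1 and 3 than in clusters 2 and 4. Other lists did not go this way. Delta cell genes summed to 1811 and 1045 against 1026 and 1895 CPM, most of it from Rbp4 in clusters 1 and 3 (1810 and 1037 against 587 and 922 CPM). Ductal genes summed to 614 and 162 against 272 and 318 CPM, and Schwann cell genes to 8.95 and 4.38 against 10.4 and 3.40 CPM. The sum of Ppy and Pyy was higher in clusters 1 and 3. Within the 6 lists some single members were not lower. The macrophage genes C1qa (44.0 CPM in cluster 3, 21.9 in cluster 2), C1qb (41.3 and 27.3), C1qc (25.2 and 14.6) and Csf1r (5.08 and 2.00) were higher in cluster 3 than in cluster 2. Lyz2 (2.39 and 7.39), Cd68 (10.3 and 10.4) and Cd74 (52.0 and 103) were not. The lower macrophage sum of cluster 3 against cluster 2 thus rested on Cd74, an antigen presentation gene. Among the beta cell genes, Nkx6-1 was highest in cluster 1 (16.2 CPM, against 11.6 in cluster 2 and 0.243 in cluster 4), as was G6pc2 (38.6 against 13.4 and 7.65 CPM). Several of these transcripts were found in most cells of library C. Sst was missing from 3.30% of the cells of cluster 2 and 3.12% of cluster 4, and Hbb-bs from 10.6% and 12.5%. Ccl5 was missing from 60.4% and 55.6%. Whether the cells that held such UMIs made them was not tested, nor was the part of these cell types in the shared low set.

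A second group of shared low genes lay on chromosome 10, which held 12 of the 48, although it held 367 of the 7193 genes. These 12 were scattered along the chromosome, from the window of 0 to 10 Mb to that of 120 to 130 Mb. All but Lyz2, a macrophage lysozyme gene, were highest in cluster 2. Mdm2, the ligase that degrades p53, was at 44.9 and 49.4 CPM in clusters 1 and 3 against 2450 CPM in cluster 2 and 168 CPM in cluster 4. The splicing factor gene Sf3a2 was at 26.2 and 20.03 CPM against 3247 and 105 CPM, and its neighbour Plekhj1 at 99.9 and 56.2 CPM against 6926 and 340 CPM. Lss, an enzyme of cholesterol synthesis, was at 7.40 and 8.97 CPM against 257 and 23.3 CPM. In islet cluster 2.1 Mdm2, Sf3a2 and Plekhj1 were at 27.3, 17.4 and 69.8 CPM, closer to clusters 1 and 3 than to either cluster of library C. For these genes the low call of clusters 1 and 3 thus rests on high values in cluster 2 and, to a smaller degree, in cluster 4. Cdk4, on the same chromosome and chosen after its values were seen, showed the gradient (152 and 90.1 against 2764 and 212 CPM) but was not 2-fold lower in cluster 1 than in cluster 4.

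Among the other shared low genes, Rcn3, a calcium-binding protein of the secretory pathway, was at 0.221 and 19.9 CPM against 86.6 and 74.1 CPM. The vasopressin receptor Avpr1b was at 0.576 and 16.3 CPM against 53.8 and 45.1 CPM. Rps4l, a ribosomal protein gene copy whose reads may be shared with near-identical genes, was at 1.82 and 5.48 CPM against 247 and 62.1 CPM. Dbpht2 and the histone gene Hist1h4h were at 48.4 and 85.6 against 413 and 263 CPM and at 30.1 and 40.8 against 97.2 and 95.01 CPM. The heat shock gene Hspa1a was at 4.52 and 1.30 against 24.5 and 13.8 CPM, and Ier2, an immediate early gene that tissue handling can induce, at 30.2 and 47.7 against 95.5 and 144 CPM. The class II antigen gene H2-Eb1 stood at 3.23 and 8.97 against 20.5 and 39.2 CPM and the mitochondrial gene ND6 at 4.56 and 7.97 against 24.02 and 20.5 CPM. Clu, a secreted chaperone (9.57 and 23.6 against 80.1 and 50.5 CPM), left the set when a mean over cells replaced the summed level (largest log2 ratio -0.72). Cenpf, a mitosis gene (9.70 and 7.97 against 30.6 and 49.9 CPM), left it when cycling cells were left out (-0.94).

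**Figure D2:**
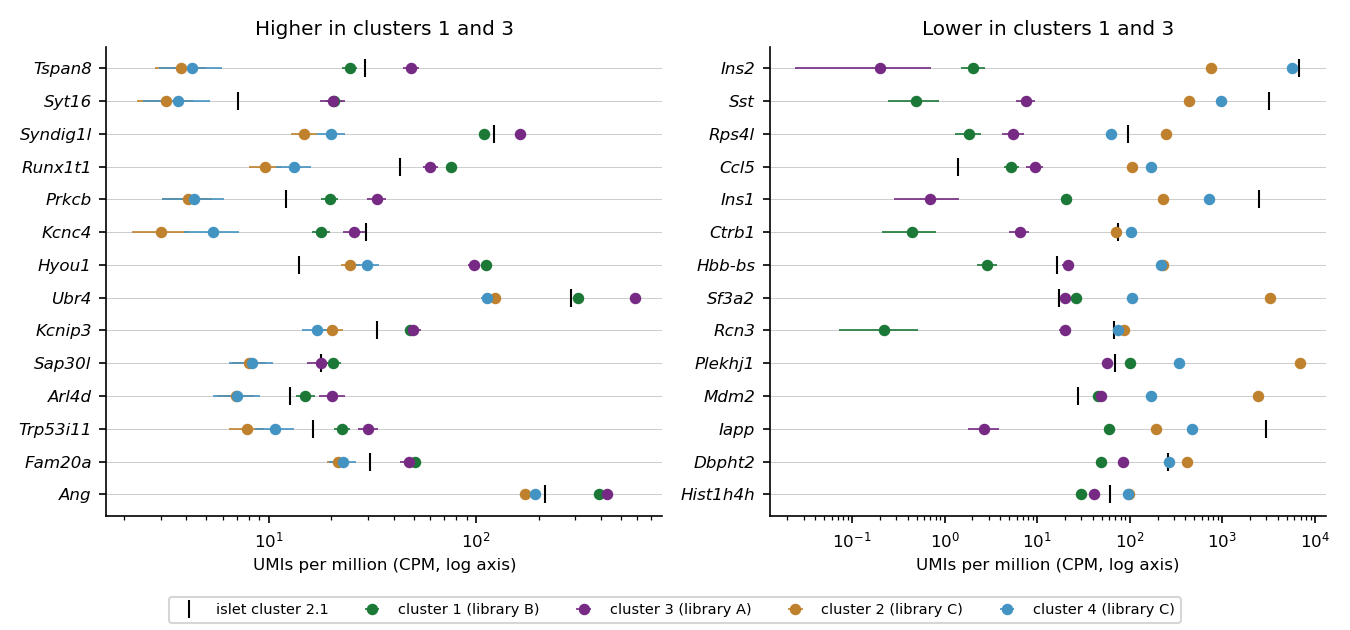
Named genes that were 2-fold or more higher (left) or lower (right) in clusters 1 and 3 than in clusters 2 and 4, in CPM on a log axis, 1 point per tumor cluster with exact 95% counting intervals and a black tick for islet alpha cluster 2.1. On the left the points of clusters 1 and 3 lie apart from those of clusters 2 and 4 on the high side, as for Hyou1 (111 and 97.8 against 24.8 and 29.9), and on the right on the low side.

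The size of both sets depended on requiring both libraries. With library A left out, and so cluster 1 alone against clusters 2 and 4, 43 genes were high and 177 low. With library B left out, and so cluster 3 alone, 127 were high and 161 low. With hormone genes taken out of the totals, 24 genes were high and 84 low, among them 14 of the 20 and 47 of the 48. With a mean over cells 14 of the 20 and 45 of the 48 kept their call.

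Set beside the islets, the shared genes did not form a single pattern. Of the 20 shared high genes, 6 were within 2-fold of islet cluster 2.1 in clusters 1 and 3 and beyond it in clusters 2 and 4. They were Syndig1l, Runx1t1, Tspan8, Kcnc4, Sap30l and 1 predicted gene. In 1 gene the reverse held, and 13 fitted neither. Of the 48 shared low genes, 12 were near the islet level in clusters 1 and 3 alone, 8 in clusters 2 and 4 alone and 28 in neither. Over all 7193 genes the first pattern was met by 181 (2.52%) and the second by 62 (0.862%). The shared genes were chosen for 2-fold gaps between the same clusters, which favours either pattern. Their larger shares are therefore no measure of likeness to the islet cells. Each islet genotype had 1 library, so these are levels of single libraries.

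Clusters 1 and 3 also differed from each other. In 182 genes (2.53%) cluster 1 was 2-fold or more higher than cluster 3, and in 285 genes (3.96%) cluster 3 was higher. With hormone genes taken out of the totals the counts were 232 and 447. In 70 of the 182, cluster 3 alone stood apart, 2-fold or more below clusters 2 and 4. In 8 cluster 1 alone did, 2-fold or more above both, and in 2 both clusters did. The 182 and the 70 each include 14 overlapping Pcdha rows of chromosome 18 that hold nearly the same UMIs. In 100 of the 285, cluster 1 alone stood apart, 2-fold or more below clusters 2 and 4. In 54 cluster 3 alone did, 2-fold or more above both, and in 3 both clusters did. Single pairs of clusters differed as often: against cluster 2, 2.52% of genes were 2-fold or more higher in cluster 1 and 5.66% lower, and 3.82% were higher in cluster 3 and 5.41% lower. Against cluster 4, 2.52% were higher in cluster 1 and 3.34% lower, and 3.84% were higher in cluster 3 and 3.1% lower. Between clusters 2 and 4, 3.57% were higher in cluster 2 and 2.0% in cluster 4. The genes in which clusters 1 and 3 disagreed included hormones, interferon and antigen presentation genes, ribosomal protein genes, and long runs of neighbouring genes at the ends of chromosomes 3 and 18.

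Among the secreted peptides, Pyy and Ppy, both of the pancreatic polypeptide family, went opposite ways. Pyy was at 10766 CPM in cluster 1 and 3364 CPM in cluster 3, a ratio of 3.2 (3.16 to 3.24), with 710 and 2642 CPM in clusters 2 and 4 and 55927 CPM in islet cluster 2.1. Ppy was at 275 CPM in cluster 1 and 2360 CPM in cluster 3, a ratio of 8.57 (8.33 to 8.81) for cluster 3 over 1, with 322 and 900 CPM in clusters 2 and 4. Ppy was concentrated in few cells: the top 5% of cells held 59.4% of its UMIs in cluster 1 and 65.3% in cluster 3, and the median cell had 80.9 and 473 CPM. Iapp was at 60.3 and 2.69 CPM and Ins1 at 20.7 and 0.697 CPM, both higher in cluster 1, and 661 of 844 cells (78.3%) of cluster 1 had no Iapp UMI. Spp1, the secreted phosphoprotein osteopontin, was at 409 CPM in cluster 1 and 35.1 CPM in cluster 3, a ratio of 11.7 (10.5 to 13). Of the 13 peptide hormone genes past the filter, 4 were 2-fold or more higher in cluster 1 and 4 in cluster 3, beside 2.53% and 3.96% of all genes. Ins1, Ins2, Iapp and Sst were also shared low genes, as were 0.667% of all genes.

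Most alpha cell genes were somewhat higher in cluster 1, but not Gcg (284110 and 364460 CPM). Of 16 on the alpha identity list, 2 were 2-fold or more higher in cluster 1 and 0 in cluster 3, with a median log2 ratio of cluster 1 over 3 of 0.40 against 0.03 over all genes, of which 2.53% were higher in cluster 1. The sum of the list was higher in cluster 3 (404540 and 422470 CPM). The called genes were Ttr (ratio 2.12, 2.11 to 2.13) and the imprinted gene Peg10 (218 and 97.8 CPM). Irx2 was at 174 and 98.5 CPM. Other genes higher in cluster 1 were the surface protein Cd24a (61.4 and 5.78 CPM), the potassium channel subunit Dpp6 (75.2 and 23), the imprinted gene Mest (151 and 42.7), the phosphatase Dusp26 (80.3 and 22.3) and Car8 (265 and 83.7). The noncoding RNA Snhg11 was at 133 and 27.4 CPM. The chaperone-like factor Manf, which is induced by stress of the endoplasmic reticulum, was at 986 and 419 CPM.

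Genes higher in cluster 3 included the folate receptor Folr1, at 4.65 CPM in cluster 1 and 89.5 CPM in cluster 3 (ratio 19.2, 15.7 to 23.8). Cluster 2 of library C, at 50.9 CPM, was close to cluster 3, and cluster 4, at 4.86 CPM, to cluster 1. The calcium buffer Calb1 was at 18.1 and 103 CPM against 25.8 and 23.9 CPM in clusters 2 and 4. The lipoprotein gene Apoe was at 45.4 and 205 CPM, the growth factor receptor adaptor Grb10 at 36.7 and 120 CPM and the peptidase Cpq at 49.3 and 161 CPM. Among granule genes Scg3 was at 383 and 899 CPM. Cdkn1a, the p53 target and CDK inhibitor known as p21, was at 85.0 and 222 CPM (ratio 2.61, 2.46 to 2.78). Of 17 p53 targets 4 were 2-fold or more higher in cluster 3 and 0 in cluster 1, beside 3.96% and 2.53% of all genes, the others being Phlda3 (11.8 and 32.8 CPM), Sesn1 (10.1 and 20.9) and Dcxr (13.4 and 31.1). Cdkn2a and Cdkn2b, further CDK inhibitors, were at 23.2 and 55.2 CPM and at 9.83 and 24.1 CPM.

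Interferon response genes were low in cluster 1 and not in cluster 3. Type I interferon acts through factors that include Stat2 and Irf9, which bind the interferon-stimulated response element, a pair of GAAA motifs set a short distance apart and found in the promoters of antiviral genes. The promoters of 4 genes of the list are shown, chosen after their values were seen because the genes differed between clusters 1 and 3 and the promoters hold 2 or more matches. Those of Irf7 and Irf9, which also differed, hold none. Each line gives the 250 bases before the start that the promoter table gives, on the gene's own strand, 5' to 3', from RefSeq on GRCm38.p6, with matches to GAAA, any 2 bases and GAAA again, on either strand, in capitals. The positions are chr4:156200819-156201068 (minus strand) for Isg15, chr19:34640639-34640888 (plus) for Ifit1, chr19:34583279-34583528 (plus) for Ifit3 and chr8:71537473-71537722 (minus) for Bst2.
Isg15: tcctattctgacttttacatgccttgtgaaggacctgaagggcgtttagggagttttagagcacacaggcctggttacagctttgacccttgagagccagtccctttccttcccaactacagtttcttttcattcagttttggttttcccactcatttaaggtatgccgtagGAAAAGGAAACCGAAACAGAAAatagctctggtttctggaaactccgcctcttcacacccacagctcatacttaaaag
Ifit1: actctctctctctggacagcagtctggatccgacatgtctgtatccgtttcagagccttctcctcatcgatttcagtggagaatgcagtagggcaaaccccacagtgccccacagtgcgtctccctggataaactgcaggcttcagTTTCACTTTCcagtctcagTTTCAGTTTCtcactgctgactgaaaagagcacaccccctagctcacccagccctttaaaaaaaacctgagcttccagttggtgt
Ifit3: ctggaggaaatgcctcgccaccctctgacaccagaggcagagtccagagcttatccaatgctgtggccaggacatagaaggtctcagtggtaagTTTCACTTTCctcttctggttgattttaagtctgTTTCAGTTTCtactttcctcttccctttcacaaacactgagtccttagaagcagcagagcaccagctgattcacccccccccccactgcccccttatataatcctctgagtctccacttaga
Bst2: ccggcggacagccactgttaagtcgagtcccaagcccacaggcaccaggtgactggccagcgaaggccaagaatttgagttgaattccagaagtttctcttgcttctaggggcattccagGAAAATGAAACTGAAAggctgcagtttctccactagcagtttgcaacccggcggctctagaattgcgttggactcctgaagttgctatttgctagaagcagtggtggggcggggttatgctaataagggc
The stretch of Ifit3 ends at the start of one of its transcripts and lies within the gene as placed here, which begins at chr19:34583119. Isg15 had 3 overlapping matches, the first starting 78 bases before the gene's start. Ifit1, Ifit3 and Bst2 had 2 each, overlapping in Bst2.

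Isg15, a ubiquitin-like protein induced by interferon, was at 2.30 CPM in cluster 1 and 13.2 CPM in cluster 3, with 14.9 and 16.9 CPM in clusters 2 and 4. Ifit1, an RNA-binding antiviral protein, was at 3.14 and 21.6 CPM, a ratio of 6.88 (5.24 to 9.12) for cluster 3 over 1, with 59.3 and 23.7 CPM in clusters 2 and 4. Its relative Ifit3 was at 1.51 and 12.7 CPM, and Bst2, a membrane protein that tethers budding virus, at 21.3 and 67.0 CPM. The regulators showed the same order: Irf7 was at 13.6 and 68.7 CPM, Stat2 at 5.31 and 26.4 CPM and Irf9 at 11.5 and 29.5 CPM. Rtp4 (2.30 and 15.8 CPM) and Gbp7 (2.30 and 15.3 CPM) showed the same direction.

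Of 23 interferon genes past the filter, 15 were 2-fold or more higher in cluster 3 and 0 in cluster 1, and in each of these 15 cluster 1 had the lowest of the 4 levels. Of all genes past the filter, 3.96% were higher in cluster 3. The list's median log2 ratio of cluster 1 over 3 was -1.40. Against cluster 2 the list's median log2 ratio was -1.77 for cluster 1 and -0.34 for cluster 3, where all genes had -0.11 and -0.16. The list summed to 707 CPM in cluster 1, 1256 in cluster 3, 1500 in cluster 2 and 1026 in cluster 4, and to 523 CPM in islet cluster 2.1, so that the cells of cluster 1 were the nearest of the 4 to the islet cells. The shift was carried by most cells: the median cell held 638 CPM in cluster 1 and 983 CPM in cluster 3, with the middle 50% of cells at 505 to 811 and 755 to 1413 CPM. Macrophage marker genes, whose sums are given above, were also lowest in cluster 1. Their part in the interferon values was not tested.

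**Figure D3:**
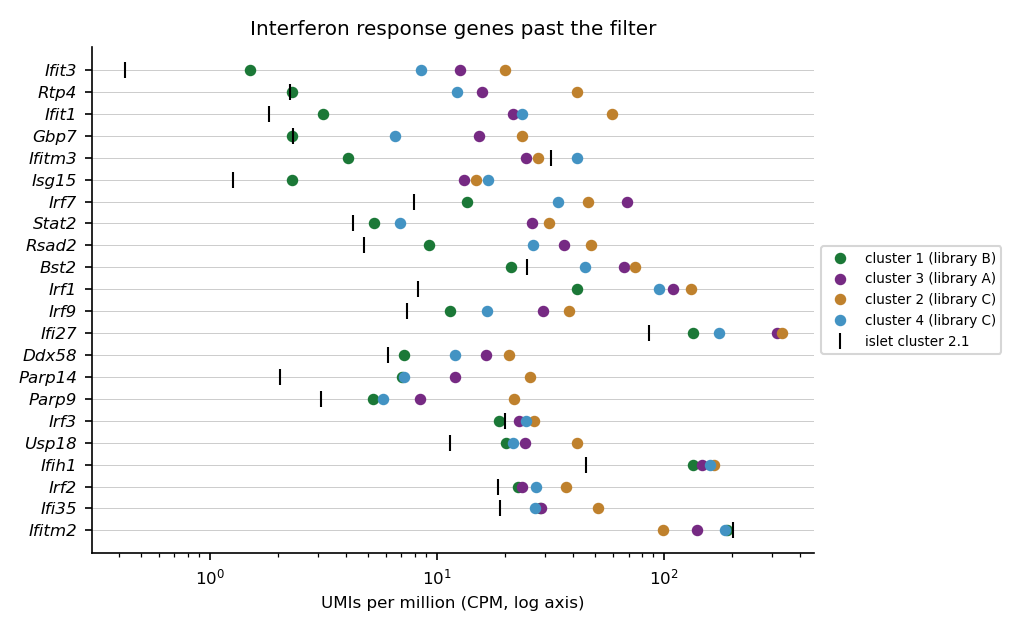
Levels of 22 of the 23 interferon response genes past the filter, in CPM on a log axis, 1 point per tumor cluster and a black tick for islet alpha cluster 2.1, ordered by the ratio of cluster 1 to cluster 3. Toward the top the points of cluster 1 lie left of the other 3 tumor clusters, as for Ifit1 (3.14 against 21.6, 59.3 and 23.7).

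The letters of the response element were searched in promoters of 300 bases (250 before to 50 after the start), on both strands and with overlapping matches allowed. The pair of GAAA motifs 2 bases apart occurred in 943 of 27025 promoters (3.49%) and in 162 of the 5386 promoters matched to genes past the filter (3.01%). Among genes 2-fold or more higher in cluster 3 it occurred in 23 of 177 (13%), and among those higher in cluster 1 in 5 of 92 (5.43%). Interferon list genes held it in 15 of 24 promoters (62.5%), those of the list higher in cluster 3 in 9 of 12 (75%), and the genes higher in cluster 3 outside that list in 14 of 165 (8.48%). It was in 0 of 13 promoters of shared high genes and in 4 of 29 of shared low genes (13.8%). The cAMP response element TGACGTCA was in 1 of the 13 (7.69%) and in 3 of the 29 (10.3%), against 3.96% of genes past the filter, and the endoplasmic reticulum stress element, CCAAT and CCACG with 9 bases between, in 0 of 13, against 0.167%. These are matches of letters and not measured binding.

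The sum of the antigen presentation list ran in the same order, at 1225 CPM in cluster 1, 2337 in cluster 3, 4027 in cluster 2 and 2156.5 in cluster 4. B2m, the light chain of MHC class I, was at 242 CPM in cluster 1 and 769 CPM in cluster 3 (ratio 3.18, 3.07 to 3.30), with 2161 and 586 CPM in clusters 2 and 4. The class I heavy chain H2-K1 was at 409 and 797 CPM. Of 15 genes of the list, 6 were 2-fold or more higher in cluster 3 and 0 in cluster 1, beside 3.96% and 2.53% of all genes. The list's median log2 ratio of cluster 1 over 3 was -0.83, against 0.03 over all genes. The class II genes among them were Cd74 (17.0 and 52.0 CPM), H2-Aa (3.99 and 14.0), H2-Ab1 (4.52 and 16.1) and H2-Eb1. In clusters 2 and 4 Cd74 was at 103 and 209 CPM, H2-Aa at 26.2 and 66.2 and H2-Ab1 at 31.8 and 63.5. The class II genes were thus lower in both clusters 1 and 3 than in clusters 2 and 4. Class II genes are made mainly by immune cells. The macrophage marker sums ran in the same order, but Cd74 is itself on that list. It gave 52.0 of the 180 CPM in cluster 3 and 103 of the 186 CPM in cluster 2. Of the other macrophage genes, C1qa, C1qb, C1qc and Csf1r were higher in cluster 3 than in cluster 2, unlike the class II genes, and Lyz2 and Cd68 were not. The share of macrophage RNA in the class II values was not tested. The median cell held 1119 CPM of the whole list in cluster 1 and 2034 in cluster 3.

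Immediate early genes, which cells switch on within minutes of stimulation or handling, were split. Of 29 past the filter, Klf2 (72.3 and 17.3 CPM), Klf4 (87.0 and 39.3) and Egr4 (55.4 and 16.8) were higher in cluster 1, while Egr3 (5.67 and 29.2), Atf3 (47.2 and 141), Zfp36 (67.2 and 161) and Npas4 (16.9 and 44.5) were higher in cluster 3. Over all genes 2.53% were higher in cluster 1 and 3.96% in cluster 3. Fos stood at 216 and 361 CPM. Of 10 mitochondrially encoded genes past the filter, 3 were 2-fold or more higher in cluster 3, beside 3.96% of all genes. They were COX2 (4.03 and 17.4 CPM), COX3 (12.3 and 47.9) and ATP6 (14.6 and 34.9). The list summed to 12143 and 13859 CPM against 22599 and 18093 CPM in clusters 2 and 4. Among metallothioneins, which buffer zinc, Mt1 was at 12.9 and 41.9 CPM and Mt2 at 2.21 and 7.77 CPM. None of the 23 regulated exocytosis genes and none of the 12 amino acid transporter genes past the filter differed 2-fold between clusters 1 and 3. Over all genes 6.49% did, so these counts of 0 are near the background.

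Cytosolic ribosomal protein genes were higher in cluster 3. Of 71 past the filter, 31 were 2-fold or more higher in cluster 3 and 1 in cluster 1, beside 3.96% and 2.53% of all genes. The median log2 ratio was -0.98 for cluster 1 over 3, and 1.03 for cluster 3 over 2 against 0.13 for cluster 1 over 2. The sum moved less than the median, from 43317 CPM in cluster 1 to 54233 in cluster 3, with 34341 and 34714 CPM in clusters 2 and 4, since the most abundant members differed less. Rpl11 was at 159 and 437 CPM, Rps10 at 259 and 659 CPM and Rps12 at 91.6 and 238 CPM. The 1 gene higher in cluster 1 was Rps14 (4495 and 2222 CPM), which lies on chromosome 18 within the stretch described next. Rpl34 (90.7 and 467 CPM) and its pseudogene Rpl34-ps1 (57.2 and 238 CPM) may share reads. This list was assembled by gene symbol after its values were seen.

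The genes in which clusters 1 and 3 disagreed were not spread evenly over the chromosomes. On chromosome 3, 49 of 350 genes (14.0%) were 2-fold or more higher in cluster 3, against 3.96% of all genes. On chromosome 18, 50 of 217 genes (23%) were 2-fold or more higher in cluster 1, against 2.53% of all genes. Of these 50, 14 were overlapping Pcdha rows that hold nearly the same UMIs. The stretches below were chosen after these values were seen, and DNA was not measured in the files used here.

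**Figure D4:**
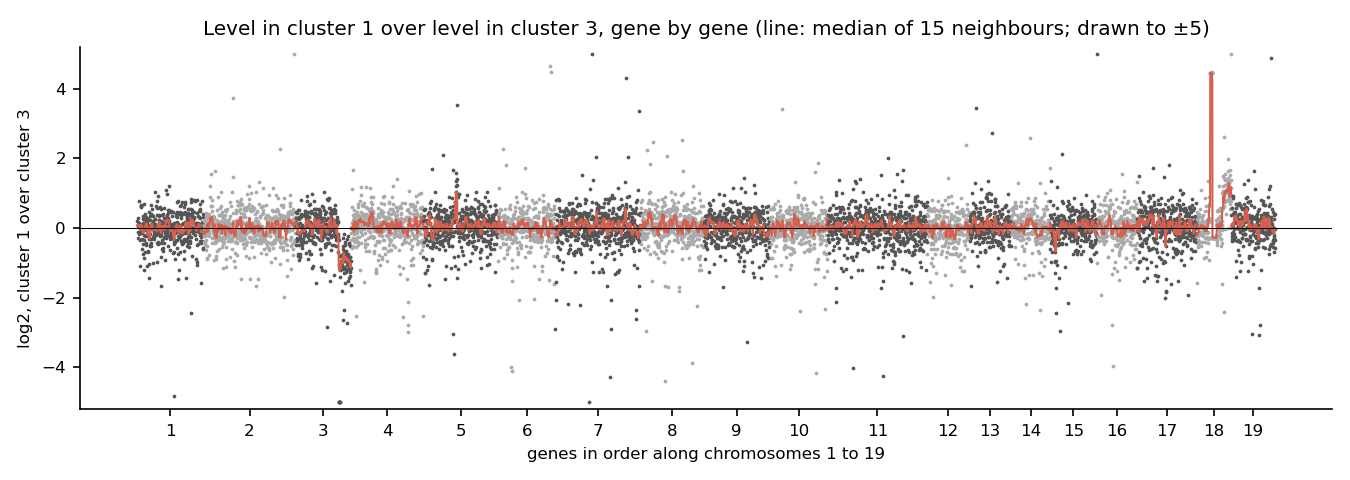
Log2 ratio of the level in cluster 1 to that in cluster 3 for each gene past the filter, in order along chromosomes 1 to 19 (shades alternate by chromosome), with the running median of 15 neighbouring genes as a line and values drawn to 5 either way. The line leaves 0 most over the end of chromosome 3, where the median was -0.99, the end of chromosome 18, where it was 1.02, and a narrow peak from the overlapping Pcdha rows of chromosome 18; a smaller rise lies on chromosome 5, with a median of 0.72 between 100 and 110 Mb.

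At the end of chromosome 3 cluster 1 was low. From 110 Mb on, all 78 genes past the filter were lower in cluster 1 than in cluster 3, 39 of them (50%) 2-fold or more. The median log2 ratio of cluster 1 over 3 was -0.99 (middle 50% of genes -1.21 to -0.81), a median ratio of 1.99 for cluster 3 over 1. In 75 of the 78 (96.2%) cluster 1 had the lowest of the 4 cluster levels, against 22.1% of genes on the other autosomes. Against islet cluster 2.1 the median log2 ratio of these genes was -0.56 in cluster 1 and 0.47, 0.63 and 0.44 in clusters 3, 2 and 4. Over all autosomal genes past the filter it was 0.39 in cluster 1 and 0.38, 0.49 and 0.30 in clusters 3, 2 and 4. Before 110 Mb the 272 genes of the chromosome had a median log2 ratio of cluster 1 over 3 of 0.02. The genes of the stretch have no function in common by which they were chosen. They include Snhg8 (133 and 463 CPM), the secretory coat protein Sec24d (25.9 and 52.0), the selenoprotein gene Sep15 (211 and 248), the oligosaccharyltransferase subunit Ostc (159 and 265), Rpl34 and Gbp7.

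Inside this stretch lay a short block in which cluster 1 had almost no UMIs. Over chr3:115881578-116712708 the 6 genes past the filter, A930005H10Rik, Slc30a7, Extl2, Rtca, Hiat1 and Slc35a3, had 1 to 3 UMIs each and 13 together in cluster 1, against 1139 in cluster 3. Slc30a7, a zinc transporter of the secretory pathway, had 2 UMIs (0.0886 CPM) in cluster 1 and 205 (20.4 CPM) in cluster 3, a ratio of 231 (63.0 to 1917). The 6 genes were at 13.9 to 22.4 CPM in cluster 3, 14.5 to 34.4 in cluster 2, 13.7 to 31.8 in cluster 4 and 11.2 to 22.2 in islet cluster 2.1. Neighbouring genes under the filter were much the same: Dbt, Trmt13 and Sass6 had 0 UMIs in cluster 1 and 86, 62 and 24 in cluster 3, and Dph5 and Cdc14a had 1 UMI each. Vcam1, within the block and expressed by endothelial cells, had 10 and 38 UMIs.

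At the end of chromosome 18 cluster 3 was low. From 60 Mb on, 56 of 60 genes were higher in cluster 1 than in cluster 3, 33 of them (55%) 2-fold or more, with a median log2 ratio of 1.02 (middle 50% 0.75 to 1.29). In 54 (90%) cluster 3 had the lowest of the 4 levels, against 31.2% on the other autosomes. Against islet cluster 2.1 the median log2 ratio was -0.53 in cluster 3 and 0.41 in cluster 1, where all autosomal genes past the filter had 0.38 and 0.39. The 140 genes before 60 Mb, apart from the Pcdha rows, had a median log2 ratio of -0.06. Named genes of the stretch include Ier3ip1 (426 and 108 CPM) and Sec11c, a subunit of the signal peptidase (399 and 135), both parts of early secretion. Atp5a1, the alpha subunit of the ATP synthase, was at 323 and 131 CPM, the splicing factor Txnl4a at 164 and 56.6 CPM, Txnl1 at 90.1 and 38.8 CPM and the asparaginyl-tRNA synthetase Nars at 63.1 and 23.3 CPM. Smad4 and Smad2, which carry TGF-beta signals to the nucleus, were at 35.6 and 20.5 CPM and at 14.4 and 5.58 CPM. Tmx3, a thioredoxin-like membrane protein, had 262 UMIs in cluster 1 and 3 in cluster 3. The 4 exceptions were Cidea (33.9 and 34.7 CPM), Ndst1 (12.7 and 16.9), Cd74 and Onecut2 (3.81 and 20.4). Ttr and Gfra3 lie before this stretch.

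Genes were counted as nearly absent from a single cluster at 0.1 times the lowest other level or less, where that other level was 10 CPM or more. They numbered 12 for cluster 1 and 21 for cluster 3, against 5 for cluster 2 and 0 for cluster 4. In cluster 1, 6 of the 12 were those of the chromosome 3 block. In cluster 3, 14 of the 21 were rows of the protocadherin alpha cluster on chromosome 18, whose rows share their last exons and hold nearly the same UMIs, 345 in cluster 1 and 7 in cluster 3 for Pcdha1, so they stand for 1 measurement. Ppp1r1a, an inhibitor of protein phosphatase 1 known from endocrine cells, was another, with 928 UMIs in cluster 1 and 3 in cluster 3.

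The difference at the chromosome ends was also seen in single cells, with ranges that stood apart on chromosome 3 and overlapped on chromosome 18. Of the UMIs of chromosome 3, the genes from 110 Mb on gave 12.6% in cluster 1 (5th to 95th percentile of cells 9.68 to 15.6) and 23.7% in cluster 3 (18.8 to 28.5), with 25% and 22.5% in clusters 2 and 4. On chromosome 18 without its 3 genes of 1000 CPM or more (Ndufa2, Rps14 and Ttr), the genes from 60 Mb on gave 30.2% in cluster 1 (21.96 to 39.8) and 16.8% in cluster 3 (10.1 to 25.9), with 30.5% and 30.3% in clusters 2 and 4. The few cells that lay in the other library's cluster kept the values of their library on chromosome 3. The 2 cells of library A in cluster 1 had 24.4% of their 1141 chromosome 3 UMIs beyond 110 Mb (exact 95% interval 21.9 to 27.0). The 2 cells of library B in cluster 3 had 11.9% of 176 (7.54 to 17.7). On chromosome 18 the same cells of library A had 16.5% (13.5 to 19.9), while those of library B had 19.1% of 110 UMIs (12.2 to 27.7), an interval below the 30.2% of cluster 1. These intervals cover counting error only.

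**Figure D5:**
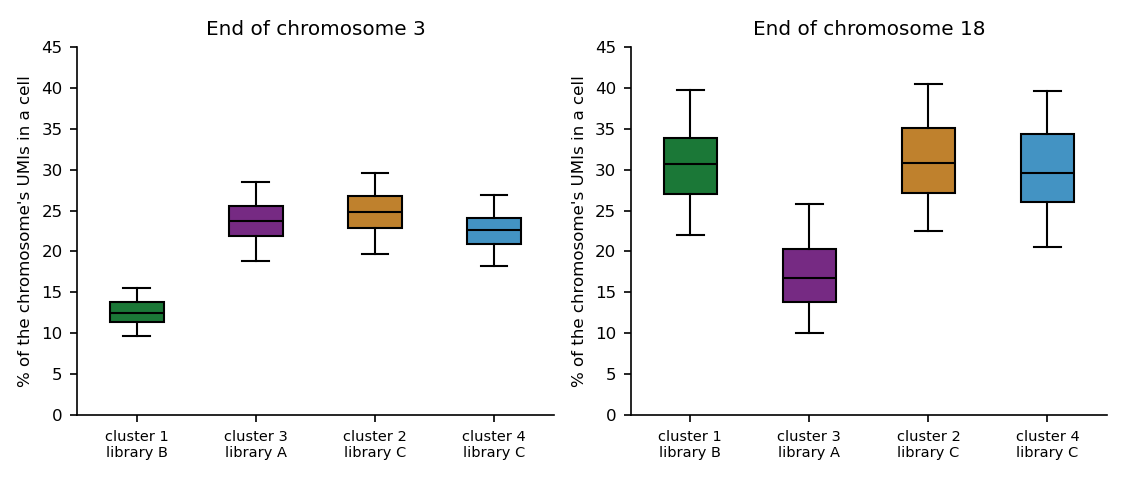
Share of a cell's UMIs of chromosome 3 that fell on genes from 110 Mb on (left) and of chromosome 18 on genes from 60 Mb on (right), in percent, for the cells of each tumor cluster's main library; boxes span the middle 50% of cells with the median, whiskers the 5th to 95th percentile. Cluster 1 is low on the left (12.6% of its UMIs against 23.7% in cluster 3) and cluster 3 is low on the right (16.8% against 30.2%).

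Other windows of the genome showed smaller differences. Of 254 windows of 10 Mb, 142 held 20 or more genes past the filter, and outside the 2 chromosome ends the median log2 ratio of cluster 1 over 3 in the other 139 ran from -0.23 to 0.72. The upper value came from chromosome 5 between 100 and 110 Mb, the window of Spp1, where 8 of 25 genes were 2-fold or more higher in cluster 1.

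Only 5 genes were opposed, that is 2-fold or more above clusters 2 and 4 in one of the clusters 1 and 3 and 2-fold or more below both in the other. Both contrasts use clusters 2 and 4, so they are not independent. High in cluster 1 and low in cluster 3 were 2 genes (0.0278%), Spp1 and G6pc2, the islet glucose-6-phosphatase subunit, which was at 38.6 and 2.89 CPM with 13.4 and 7.65 CPM in clusters 2 and 4 (ratio of cluster 1 over 3 13.4, 9.24 to 20.1). High in cluster 3 and low in cluster 1 were 3 genes (0.0417%): S100a16, Snhg18 and Rpl34. S100a16, a calcium-binding protein, had 0 UMIs in cluster 1 and 361 in cluster 3 (36.0 CPM), with 1.70 and 2.43 CPM in clusters 2 and 4. Taking 3 UMIs as the limit that a count of 0 allows, cluster 3 was at least 271-fold higher than cluster 1, or at least 219-fold at the exact 95% counting limit. The noncoding RNA Snhg18 was at 17.5 and 94.3 CPM, with 37.1 and 44.95 CPM in clusters 2 and 4.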

How the data were processed

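Single cells of islets and tumors were profiled with 10x 3' V2 chemistry. The deposited signal values had been made by the authors by dividing the UMIs of each cell by its total and multiplying by a constant, 9936 in the islet tables and 12219 in the tumor table. This was worked out from the values, as 100% of them gave whole numbers within 0.01. Undoing the authors' scaling gave the UMI counts of each cell, which were used throughout. The recovered UMIs of a cell were 1.0275 times its listed total in the tumor table (1.0141 and 1.0196 in the islet tables, medians). The submitters' processing notes name CASAVA 1.8, bcl2fastq 2.17, GSNAP and GRCm38, without their roles, and cluster numbers are those of the tumor table.

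Of 36529 gene rows, 31049 were placed by gene ID and 165 by symbol on RefSeq GRCm38.p6. Left out were 5320 unplaced rows (2.44% of UMIs) and 1539 rows of X and Y (3.11%). All members had 1000 UMIs and 500 genes or more, and no more than 20% of their UMIs were mitochondrial. Doublets were called with Scrublet at an expected rate of 0.06. Counts were summed per cluster and library with at least 20 cells. Intervals are exact 95% intervals and cover counting error only. No test was made, because the clusters came from the same values and each stands for 1 library.

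The members, the 31 gene lists (5 symbols not found), the 14 marker lists and all rules were chosen with earlier results of these data known. Genes were named by rule: the markers; the 15 shared genes each way with the largest smallest fold, at 50 CPM or more and without predicted symbols; the 12 each way for cluster 1 against 3; up to 4 per list; and up to 8 opposed genes each way. Genes outside that rule, chosen after their values were seen, are Tspan8, Syt16 and the other low-level shared high genes, Gcg, Hspa5, Irx2, Fos, Cdk4, H2-K1, Ppp1r1a, Rpl11, Rps10, Rps12 and the genes of the chromosome ends and the block. So were the chromosome stretches, the block, the ribosomal list, the leave-out of genes of 1000 CPM or more and the motifs. A few genes that enter the counts are not reported here by name. Alternatives were other totals, centring, folds and filters, doublets kept, cells pooled or averaged, cycling cells left out and each tumor library left out. Used were python 3.11.15, numpy 2.4.6, pandas 2.3.3, scipy 1.17.1, scanpy 1.11.5 and matplotlib 3.10.9.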

Additional observations from a re-analysis of the deposited data

Results flagged for a closer look

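In 5 genes clusters 1 and 3 lay on opposite sides of clusters 2 and 4. The difference was not tested, and both contrasts use clusters 2 and 4. The log2 ratio of cluster 1 over 3 was 3.74 for G6pc2, 3.54 for Spp1, -2.43 for Snhg18 and -2.36 for Rpl34. For S100a16, which had no UMI in cluster 1, it was -8.08, a bound from the limit of 3 UMIs.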

How the results depend on the processing

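No paired analysis was possible because no test was made and the columns of the tumor libraries carry no replicate number that pairs them with the islet libraries. Of the counts, 77 values stayed within 1.5 times the reported one and 52 did not. Of single gene values, 1422 moved by less than their counting error, 48 moved by more and 0 changed direction. The settings of 1.5-fold, 3-fold, 50 CPM and no filter change only the calls. Their 138 values each, counted among the 1422, could therefore not move. The counting error was taken from the tumor cluster with the fewest UMIs of the gene, so it was wide for genes of few UMIs. Without library C no value could be had, and without A or B none for cluster 1 against 3. Leaving out a library gave 43 to 127 shared high and 161 to 177 shared low genes, by construction, since 1 cluster fewer had to differ. At 1.5-fold there were 82 shared high, 126 shared low, 680 higher in 1, 681 higher in 3, and 5 and 8 opposed genes. At 3-fold there were 7, 30, 61, 89, 0 and 1. At 50 CPM or more, where fewer genes were counted, there were 6, 18, 63, 82, 1 and 1, and with no filter 466, 974, 3040, 3645, 30 and 45. With totals without hormones there were 84 shared low, 447 higher in 3 and 4 opposed genes high in 1, and the median log2 ratio of cluster 3 over 2 over all genes moved from -0.16 to -0.04. With a mean over cells 1 opposed gene was high in 3. The cause was not tested for these. Genes higher in 3 at 50 CPM and with no filter were 3 and 24 of the interferon list, 4 and 146 at the end of chromosome 3, and 2 of the MHC list at 50 CPM. Genes higher in 1 at the end of chromosome 18 were 10 and 84, and 5 at 3-fold. The end of chromosome 3 had 68 at 1.5-fold and 11 at 3-fold, and ribosomal genes 51 and 1. Shared high genes near the islet level at 1.5-fold were 3 in clusters 1 and 3 alone and 3 in clusters 2 and 4 alone. The latter were 6 with totals without hormones and 0 with 10 CPM or more in the islets. Shared low genes near it in clusters 1 and 3 alone were 7 at 1.5-fold and 5 with 10 CPM or more in the islets, and in clusters 2 and 4 alone 5 at 1.5-fold and 16 with totals without hormones. Depth limits genes of few UMIs, such as those of the block in cluster 1.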
